A study of Rattus norvegicus with 12 samples.

Results

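Superoxide dismutases, catalase and peroxidases are the enzymes that remove reactive oxygen. A list of 10 such genes was examined in F111 cells, a line of rat fibroblasts, on arrays of adherent (A16) and of soft agar colony derived (Colony) cells. The genes were Sod1, Sod2, Sod3, Cat, Gpx1, Gpx3, Gpx4, Prdx1, Prdx2 and Prdx6. They were selected on the A16 against Colony difference of these same arrays, with earlier results known, so their values are given as a description with no test. A gene was taken where a probe set carries its symbol and no other, which held for 9 of the 10 genes and 10 probe sets, out of 14217 genes with such a probe set in the series. The probe set of Prdx1 carries 2 symbols and was not used.

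A16 cells were F111 cells kept adherent on plastic for 16 h. Colony cells came from F111 cells that had spent 16 h in suspension (NA16 cells) and then 7 days in soft agar. They were freed from the agar and let attach briefly to a dish. Both groups were grown in the same medium with fetal calf serum, and the labels name no added gene or agent. The 3 arrays of a group were those of 2 biological replicates and a technical replicate 2, whose own labels do not say which culture it repeats. The titles of replicate 1, and not those of replicate 2, carry the words technical replicate 1. The log2 value of the technical array was therefore averaged with that of replicate 1, which left n = 2 cultures in either group. The source field of the Colony array of replicate 2 speaks of a tumour, against its title and cell type field, and this array was kept in the Colony group. Values are RMA intensities, the summary of each probe set's signal that the authors deposited on a linear scale, and a log2 FC is the Colony minus the A16 mean of log2 intensity. A gene was called higher or lower at a Benjamini-Hochberg adjusted p under 0.05 from limma and an FC value over 2. Standard errors (SE) are those of limma, which draws the spread of each probe set towards that of all probe sets. For a gene with widely spread cultures they are smaller than its own SDs would give. As the arrays measured whole cultures, more cells that express a gene and more RNA per cell cannot be told apart.

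Superoxide dismutases turn superoxide into hydrogen peroxide. Sod1, a copper and zinc enzyme, works in the cytosol, Sod2, a manganese enzyme, in mitochondria, and Sod3, a copper and zinc enzyme, is secreted and binds to the extracellular matrix. Hydrogen peroxide is then removed by catalase in peroxisomes, by glutathione peroxidases, of which Gpx1, Gpx3 and Gpx4 carry selenocysteine, and by peroxiredoxins, most of which are reduced again by thioredoxin. In fibroblasts these enzymes set how much hydrogen peroxide and lipid peroxide the cell carries.

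Vim and S100a4, filament and calcium binding proteins of fibroblasts, were among the brightest probe sets in both groups, while Fap lay near the 30.1 percentile in A16 cells. Of 10 fibroblast markers 3 fell in Colony cells, namely the collagen chains Col1a1 (log2 FC -2.72, adjusted p = 0.00136 from limma) and Col3a1 (log2 FC -1.40, adjusted p = 0.00744) and the surface protein Thy1 (log2 FC -1.31, adjusted p = 0.00595), and 0 rose. Of 9 leukocyte markers 1 rose, the colony stimulating factor receptor Csf1r, with an FC value of 16.1 (adjusted p = 4.15e-05 from limma). The summed intensity of the 9 ran from 1283 to 1480 on A16 and from 1691 to 1776 on Colony arrays. Ptprc, the antigen that defines leukocytes, lay between 34.7 and 38.4 on A16 and between 36.8 and 42.2 on Colony arrays. Of 7 epithelial markers 1 rose, the keratin Krt8 (FC value 4.39, adjusted p = 0.000267), while Epcam (log2 FC -0.13, adjusted p = 0.566) and Cdh1 (log2 FC 0.74, adjusted p = 0.00979) were not called. The summed intensity of these 7 ran from 935 to 1042 on A16 and from 3186 to 3937 on Colony arrays. No marker of endothelium (5 genes) or of erythroid cells (4 genes) was called. The part of these markers in the results below was not tested. Of smooth muscle markers, which fibroblasts also express, 3 of 7 fell, among them Tagln with a log2 FC of -6.51.

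Of the 9 genes, 2 were called higher in Colony cells, Sod3 and Cat, beside 4.36% of all genes, and 0 were called lower, beside 4.75% of all genes. All Colony arrays lay above all A16 arrays for 2 of the 9, beside 26.7% of all genes, and below them for 5 of the 9, beside 20.9%. As the contrast itself chose the genes, nothing is read from these shares. The median log2 FC of the 9 was -0.34, against 0.05 over all 14217 genes.

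Sod3, the secreted superoxide dismutase, showed by far the largest difference of the 9. Its RMA intensity was 57.3, 45.5 and 53.4 for A16 (replicate 1, technical replicate 2 and replicate 2, the order kept from here on) and 2842, 1774 and 1459 for Colony. The Colony arrays were all high and the A16 arrays all low, and the lowest Colony array was 25.5-fold above the highest A16 array. The mean log2 intensity was 5.71 ± 0.05 for A16 and 10.82 ± 0.44 for Colony (SD, n = 2), a log2 FC of 5.12 with a standard error of 0.21, or an FC value of 34.7. Within the Colony group the 3 arrays differed up to 1.95-fold, the widest spread of any of these genes in either group. In A16 cells Sod3 lay at the 34.0 percentile of all probe sets and in Colony cells at the 93.2 percentile. Since the A16 signal was dim, the size of the FC value is uncertain. The PLIER summary of the same arrays, a second way of reading the probes, had 38.7, 34.6 and 46.4 for A16 and 2816, 2036 and 1566 for Colony. Its log2 FC was 5.09 with 16 added to each value and 5.55 with nothing added.

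The intracellular superoxide dismutases did not share this difference. Sod1 had RMA intensities of 7782, 8456 and 7304 in A16 and of 6708, 7858 and 8215 in Colony cells. These groups overlapped, and the log2 FC was 0.00 with a standard error of 0.14. Sod2, the mitochondrial enzyme that is also known as a gene induced by inflammatory signals, had 1856, 1765 and 2125 in A16 and 1318, 1106 and 1373 in Colony cells. All Colony arrays of Sod2 lay below all A16 arrays, with a log2 FC of -0.61 and a standard error of 0.15, so that the A16 level was 1.52-fold the Colony level. Thus the 3 dismutases of the extracellular space, the cytosol and the mitochondrion had log2 FC values of 5.12, 0.00 and -0.61.

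**Figure D1:**
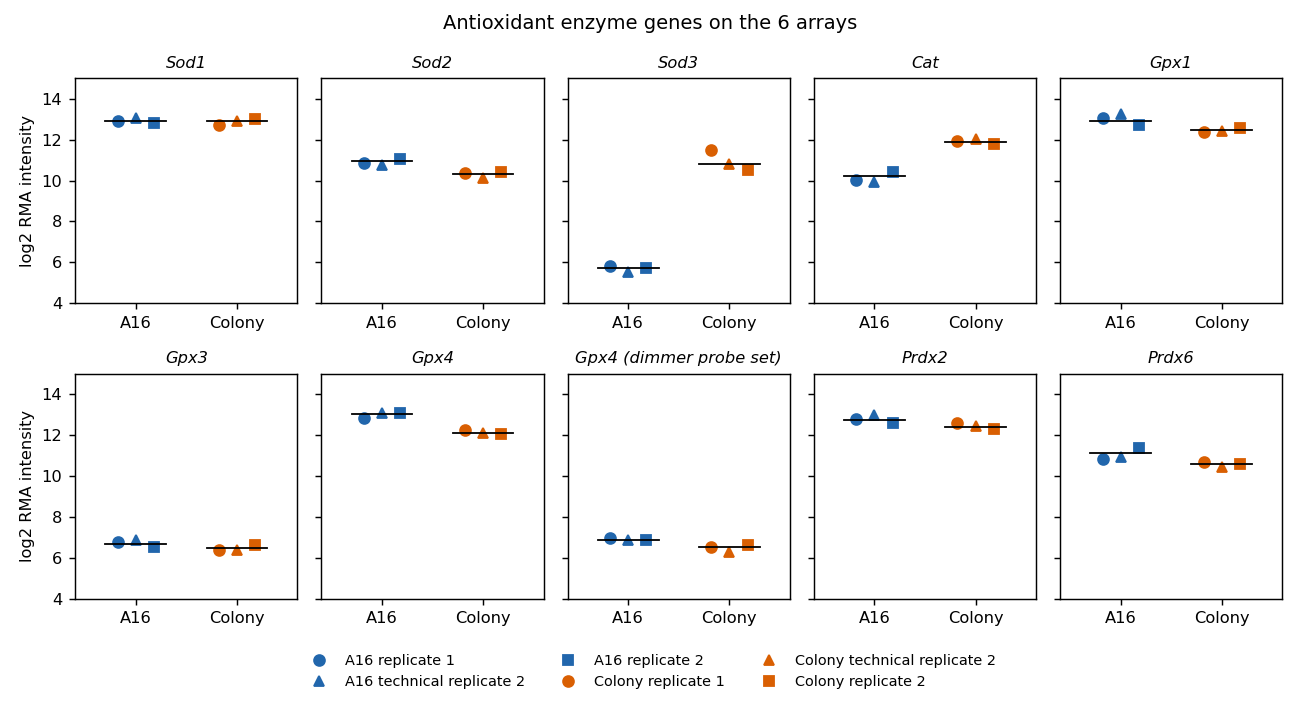
Log2 RMA intensity (vertical axis) of the 10 probe sets of the listed genes on each of the 6 arrays, with A16 arrays in blue, Colony arrays in orange, symbols for the replicate and black bars for the mean of the 2 cultures of a group. The Colony symbols of Sod3 and Cat all lie above the A16 symbols, those of Sod2, Gpx1, Gpx4, Prdx2 and Prdx6 all lie below, and those of Sod1 and Gpx3 overlap.

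Cat, the peroxisomal catalase, was the other gene with a higher level in Colony cells. Its RMA intensity was 1054, 970.4 and 1373 in A16 cells and 3939.5, 4240.3 and 3569 in Colony cells. The lowest Colony array was 2.60-fold above the highest A16 array, and here the A16 group was the more spread, by up to 1.41-fold against 1.19-fold among the Colony arrays. The mean log2 intensity was 10.20 ± 0.31 in A16 and 11.90 ± 0.14 in Colony cells (SD, n = 2), a log2 FC of 1.70 with a standard error of 0.18, or an FC value of 3.24. With PLIER the log2 FC was 1.62 with 16 added and 1.63 without. In contrast to Sod3, Cat was bright in both groups, at the 87.9 percentile in A16 and the 97.6 percentile in Colony cells.

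Of the glutathione peroxidases on the list none was called. Gpx4, which reduces lipid peroxides within membranes and so holds back ferroptosis, had 7339, 8653 and 8833 in A16 and 4910.1, 4365 and 4289 in Colony cells. Every Colony array was below every A16 array, with a mean log2 intensity of 13.03 ± 0.10 in A16 and 12.12 ± 0.08 in Colony cells (SD, n = 2). Its log2 FC was -0.91 with a standard error of 0.13, so that the A16 level was 1.88-fold the Colony level, just under the FC value of 2 of a call. A second and much dimmer probe set of Gpx4 had 124, 118 and 117 in A16 and 91.1, 77.9 and 99.3 in Colony cells, with a log2 FC of -0.38 and a standard error of 0.14. The direction of both probe sets was the same, and their sizes differed. Gpx1, the main peroxidase of the cytosol, had 8538, 9697 and 6707 in A16 and 5282, 5454 and 6124 in Colony cells. The groups of Gpx1 did not overlap, but the nearest A16 and Colony arrays were only 1.10-fold apart, with a log2 FC of -0.45 and a standard error of 0.18. Gpx3, the secreted peroxidase of plasma, was dim, with 109.5, 116 and 92.8 in A16 and 82.5, 84.9 and 98.8 in Colony cells. Its groups overlapped, with a log2 FC of -0.17 and a standard error of 0.16, so that of the secreted enzymes on the list Sod3 and not Gpx3 stood apart between the groups.

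Of the 3 listed peroxiredoxins, Prdx2 and Prdx6 had a value, and neither was called. Prdx6, which unlike other peroxiredoxins uses glutathione, had 1824, 1969 and 2676 in A16 and 1678, 1409 and 1548 in Colony cells, with a log2 FC of -0.55 and a standard error of 0.18. The highest Colony array was 1.09-fold below the lowest A16 array, and A16 replicate 2 stood above its group. Prdx2, a cytosolic peroxiredoxin, had 7032, 8164 and 6319 in A16 and 6159, 5560.3 and 5078 in Colony cells, with a log2 FC of -0.34 and a standard error of 0.15. The nearest arrays of the groups were 1.03-fold apart, and on the PLIER scale the groups of Prdx2 overlapped.

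The 250 bases upstream of the transcription start were searched on both strands for the core of the antioxidant response element bound by Nrf2 (TGACNNNGC), the core of the hypoxia response element bound by Hif-1 (ACGTG) and the GC box bound by Sp1 (GGGCGG). RefSeq promoters of build GRCr8 matched 8 of the 10 genes, Prdx1 included, and none was given for Sod3 and Prdx6. A gene was counted where any of its promoters held the motif, while the shares of all promoters count each promoter singly. A gene with several promoters had more chances to hold a motif, so these counts and shares are unlike measures. The antioxidant response core was in 2 of the 8, Sod2 and Prdx1, and in 10.1% of all 33465 promoters. The hypoxia response core was in 1 of the 8, Sod1, and in 16.6% of all promoters. The GC box was in 7 of the 8, all but Cat, and in 30.5% of all promoters. The promoters of Cat and Gpx4 are shown because these genes had the largest differences in each direction among those with a promoter. They are at chr3:110329527-110329776 and chr7:10303630-10303879 of GRCr8, both on the minus strand and read 5′ to 3′ towards the gene, with motif letters in capitals. Gpx4 has 3 start sites in RefSeq and the most upstream is shown. The 4 capital stretches of Gpx4 are GC boxes, of which the first and the second share 1 base, and Cat holds none of the 3 motifs.
Cat: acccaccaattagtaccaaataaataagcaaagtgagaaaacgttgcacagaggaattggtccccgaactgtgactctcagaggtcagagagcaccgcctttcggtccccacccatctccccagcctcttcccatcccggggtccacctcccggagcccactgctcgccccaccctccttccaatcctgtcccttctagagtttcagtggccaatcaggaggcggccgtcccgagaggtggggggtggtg
Gpx4: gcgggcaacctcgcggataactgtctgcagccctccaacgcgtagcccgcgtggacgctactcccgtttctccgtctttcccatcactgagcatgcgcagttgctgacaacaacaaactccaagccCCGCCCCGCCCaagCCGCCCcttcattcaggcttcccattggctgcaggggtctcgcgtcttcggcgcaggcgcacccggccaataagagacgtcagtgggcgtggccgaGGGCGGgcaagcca
A match is a run of letters and no measured binding, and these arrays did not measure any factor at a promoter.

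The rest of the same enzyme families, 8 measured genes that were not on the list, gave 1 call higher, 1 lower and 6 that did not pass. Gpx7, a peroxidase of the endoplasmic reticulum that lacks selenocysteine, fell. It had RMA intensities of 2528, 2913 and 2247 in A16 and 427, 405 and 439.5 in Colony cells, so that the groups were far apart. The A16 level was 5.78-fold the Colony level (log2 FC -2.53 with SE 0.15 and n = 2, limma adjusted p = 8.79e-05). Prdx5, a peroxiredoxin found in mitochondria, peroxisomes and cytosol, rose from 3356, 3594 and 3392 to 7367, 6919 and 7070.1, which is an FC value of 2.07 (log2 FC 1.05 with SE 0.13, limma adjusted p = 0.00173).

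The other 6 genes of these families had smaller differences. Prdx3, the mitochondrial peroxiredoxin, and Ccs, the chaperone that loads copper into Sod1, differed by 0.62 and 0.75 on the log2 scale (limma adjusted p of 0.0289 and 0.00863), both under the FC value of 2. Prdx4, the peroxiredoxin of the endoplasmic reticulum, had a log2 FC of -0.55 (adjusted p = 0.0299). Gpx8, the other glutathione peroxidase of that compartment, was bright on all arrays with a log2 FC of 0.13 (adjusted p = 0.571). Gpx2 and Gpx6, known from gut and olfactory epithelium, were dim throughout, with intensities from 27.8 to 32.4 and from 17.9 to 21.0. Over the 8 genes the median log2 FC was 0.08.

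**Figure D2:**
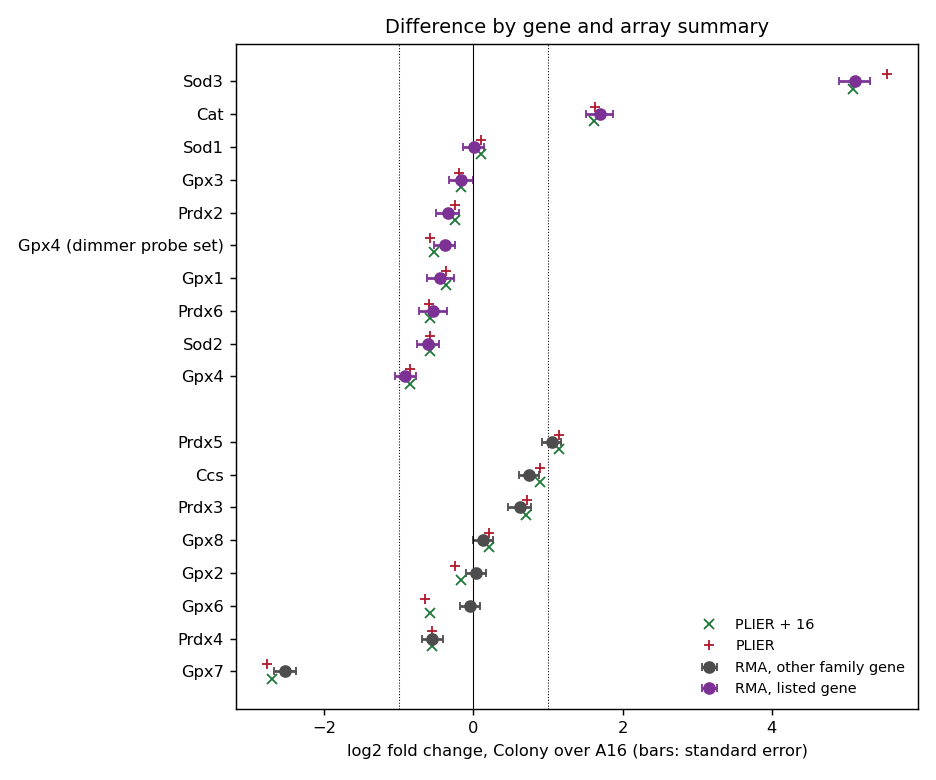
Log2 fold change, Colony over A16 (horizontal axis), of the listed genes (purple, upper block) and of the other family genes (grey, lower block) from RMA values, with bars for the standard error (n = 2 cultures per group), and from PLIER values with 16 added (green) or nothing added (red); dotted lines mark an FC value of 2. Sod3 lies at 5.12 and Cat at 1.70, Gpx7 at -2.53 and Prdx5 at 1.05, and the RMA points of all other genes lie between the dotted lines.

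Around these enzymes, 103 measured genes that make reactive oxygen, restore the reductants or supply the metals were described in 8 lists, of which 7 rose, 10 fell and 86 did not pass. The called genes were 16.5% of the 103, against 9.12% of all genes, and the median log2 FC was 0.06, against 0.05 over all genes. Of 12 sources of superoxide and hydrogen peroxide 3 rose and 2 fell. Xdh, the xanthine dehydrogenase that yields superoxide and peroxide in its oxidase form, rose from 156, 196 and 179 to 5028, 4553 and 4655. This is an FC value of 26.7 (log2 FC 4.74 with SE 0.13, limma adjusted p = 1.01e-05), with every Colony array far above the A16 arrays. Aox1, an aldehyde oxidase of the same enzyme family, rose with an FC value of 3.59 (limma adjusted p = 0.000226), or 5.34 with PLIER and nothing added. Its A16 signal was dim, at the 34.0 percentile of all probe sets, so the size of the rise is uncertain. Duox2, a peroxide-forming oxidase named after its values were seen, was the remaining gene that rose (log2 FC 1.22, adjusted p = 0.00169), and it had 0.98 with PLIER values and 16 added, under the fold threshold. In contrast Nox4, the oxidase that releases hydrogen peroxide in fibroblasts, fell from 157, 170 and 186 to 17.0, 21.3 and 23.5. Its log2 FC was -3.04 (SE 0.16, limma adjusted p = 5.89e-05), and at the 4.62 percentile of all probe sets in Colony cells the size of the fall is uncertain. The monoamine oxidase Maoa, which forms peroxide at the mitochondrial surface, fell by 1.12 on the log2 scale (limma adjusted p = 0.00333), with -0.98 without A16 replicate 1, under the fold threshold.

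Of 16 genes of the thioredoxin system, which reduces the peroxiredoxins, 2 rose and 2 fell. Txnrd3, a thioredoxin reductase known from testis, rose with an FC value of 5.44 (adjusted p = 0.000266 from limma), or 8.64 with PLIER and nothing added. Glrx, a glutaredoxin, rose by 1.00 on the log2 scale (limma adjusted p = 0.00392), at the threshold itself, and it was called in 6 of 16 other fits. Those 6 include the fits with the replicate number as a block and the filter on dim probe sets, which cannot change a log2 FC. A dimmer probe set of Glrx had a log2 FC of 0.08 (adjusted p = 0.775). Txnip, which binds and holds back thioredoxin, fell from 1845, 1754 and 1293 to 528, 589 and 632 (log2 FC -1.36, adjusted p = 0.00300). Nxn, a thioredoxin-like protein, fell with a log2 FC of -1.10 (adjusted p = 0.0122). Its second and much dimmer probe set had 0.01 (limma adjusted p = 0.982), and -0.68 with PLIER and 16 added. Nxn stayed called in 11 of 16 other fits, with log2 FC values of -0.83 without A16 replicate 2 and -0.91 without Colony replicate 2. The fits that cannot change a log2 FC are among those 11 as well. Txnrd1, the thioredoxin reductase of the cytosol, was chosen after its values were seen. Its brighter probe set had a log2 FC of -0.91 (limma adjusted p = 0.0138) and was not called, and its second probe set fell with -1.97 (adjusted p = 0.00102). Srxn1, the sulfiredoxin that repairs overoxidised peroxiredoxins, was likewise chosen after its values were seen, with -0.06 (limma adjusted p = 0.784) for its brightest probe set, and -2.02 (limma adjusted p = 0.000871) and -0.02 (limma adjusted p = 0.952) for the dimmer ones.

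Of 9 genes that make glutathione or NADPH, the reductants of the glutathione peroxidases, 0 rose and 0 fell in the limma fit, while 3 had a positive and 0 a negative difference at an adjusted p under 0.05 below the fold threshold. Of 12 genes of selenoprotein synthesis and selenoproteins 0 rose and 2 fell. These were Selenom, a thiol enzyme of the endoplasmic reticulum (log2 FC -2.08, limma adjusted p = 0.000199), and Selenop, the selenium carrier (log2 FC -1.17, adjusted p = 0.00133, and -0.55 over the mean of its probe sets, not called). The dimmer probe set in that mean lay at the 3.42 percentile in A16 and the 3.41 percentile in Colony cells, so the mean says little. Of the 4 dimmer probe sets of Sephs1, a relative of selenophosphate synthetase, 2 were called higher (log2 FC 1.13 and 1.12), beside 0.44 (limma adjusted p = 0.156) for the brightest. Of 16 genes of copper, zinc and manganese handling 1 rose and 1 fell. The metallothionein Mt2A rose from 472, 441 and 592 to 2359, 3059 and 2993, 5.46-fold higher (limma adjusted p = 0.000165). The metallothioneins Mt1 and Mt3 of the same list were not called (log2 FC 0.25 and -0.05, limma adjusted p of 0.247 and 0.851). Mt1 was dim, at the 32.0 percentile in A16 and the 37.6 percentile in Colony cells. With PLIER and 16 added its log2 FC was -0.18, of the other sign. The zinc exporter Slc30a1 fell by 1.61 on the log2 scale (SE 0.38, limma adjusted p = 0.0239). A16 replicate 2 of Slc30a1 stood at 301 against 127 and 122 for the other arrays, and without it the log2 FC was -0.97 and the gene was not called, against -2.25 without A16 replicate 1. It was also not called without Colony replicate 1 (log2 FC -1.44) or Colony replicate 2 (log2 FC -1.78). In the same list the brightest probe set of the copper importer Slc31a1 had -0.73 (limma adjusted p = 0.0239) and was not called, while 2 of its 3 dimmer probe sets were called lower, with -1.51 and -2.08 (limma adjusted p of 0.00055 and 0.000724). The brighter probe set of the metal importer Slc11a2 had -0.52 (limma adjusted p = 0.0454) and its dimmer one, called lower, -1.05 (limma adjusted p = 0.00259).

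Of 15 other genes of the peroxisome, the organelle of Cat, 1 rose and 0 fell, with a median log2 FC of 0.14. The one that rose was Phyh, the phytanic acid hydroxylase (FC value 6.65, adjusted p = 5.42e-05 from limma, and 4.07 over the mean of its probe sets). Of 7 haem peroxidases and haem degrading enzymes 0 rose and 1 fell, the matrix peroxidase Pxdn, which cross-links collagen IV. Pxdn went from 3504, 4070 and 3058 to 900.4, 966 and 1044 (log2 FC -1.78, limma adjusted p = 0.000488, and -2.42 over the mean of its probe sets). Its second probe set had -3.06 (limma adjusted p = 3.18e-05). Of 16 upstream regulators 0 rose and 2 fell, the small Maf proteins Mafk (log2 FC -1.34, adjusted p = 0.000637) and Maff (log2 FC -1.23, adjusted p = 0.00762, and -0.91 without Colony replicate 2, not called), which are partners of Nrf2. Nfe2l2, which encodes Nrf2 itself, had a log2 FC of -0.10 (adjusted p = 0.662). The probe sets of Keap1, which marks Nrf2 for degradation, disagreed in sign, with 0.40 (limma adjusted p = 0.187) for the brighter and -1.86 (limma adjusted p = 0.00723), called lower, for the dimmer.

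**Figure D3:**
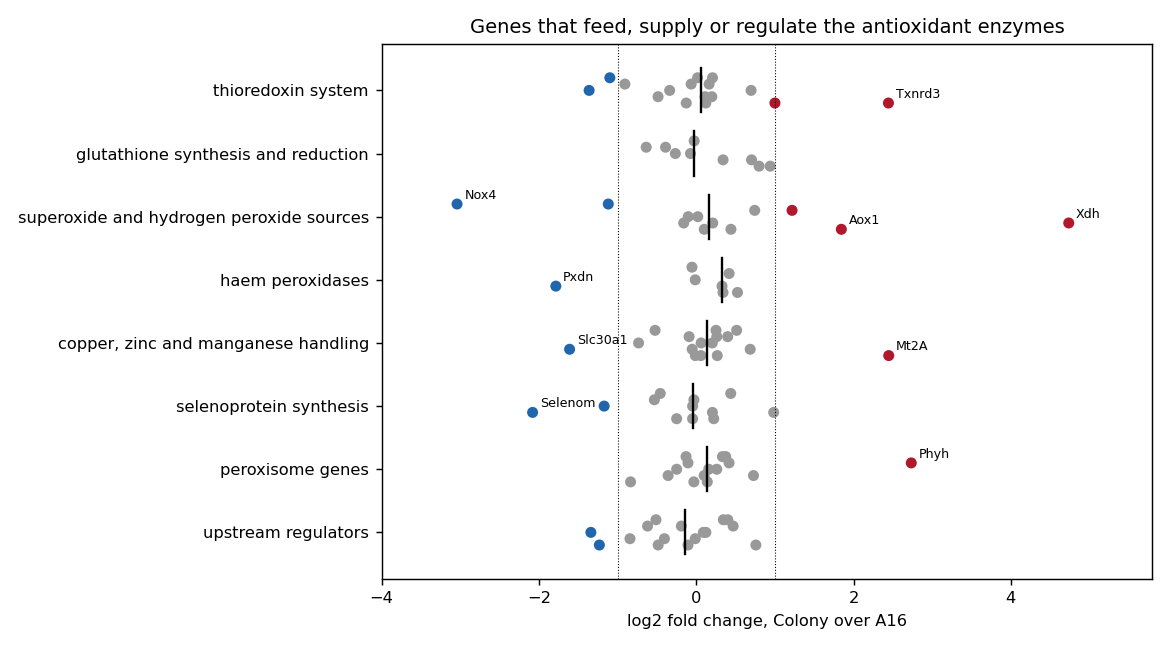
Log2 fold change, Colony over A16 (horizontal axis; n = 2 cultures per group), of each gene of 8 lists (vertical axis), with genes called higher in red, called lower in blue and not called in grey, black bars for list medians and dotted lines at an FC value of 2. Xdh at 4.74 and Nox4 at -3.04 are the extremes, in the same list, and the glutathione list has no coloured point.

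By log2 FC the 9 genes ran from Sod3 over Cat, Sod1, Gpx3, Prdx2, Gpx1, Prdx6 and Sod2 to Gpx4. As the contrast chose the genes, this order is a description with no test. Sod3 and Cat had the highest values. From Sod1 at 0.00 to Sod2 at -0.61 the steps between direct neighbours were small. They were no more than about the standard error of a single gene (0.14 to 0.18), so that neighbours cannot be ordered. In 16 other fits the log2 FC of Sod3 lay between 4.80 and 5.55 and that of Cat between 1.48 and 1.92. Some of these fits could not change a log2 FC, namely those with a replicate block and the filter on dim probe sets. Nor could the mean over probe sets for a gene with a single probe set. The log2 FC of Gpx4 lay between -0.99 and -0.65, of Sod2 between -0.72 and -0.49, of Prdx6 between -0.79 and -0.30 and of Gpx1 between -0.67 and -0.23, below 0 in each. That of Sod1 lay on both sides of 0, from -0.09 to 0.10.

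**Figure D4:**
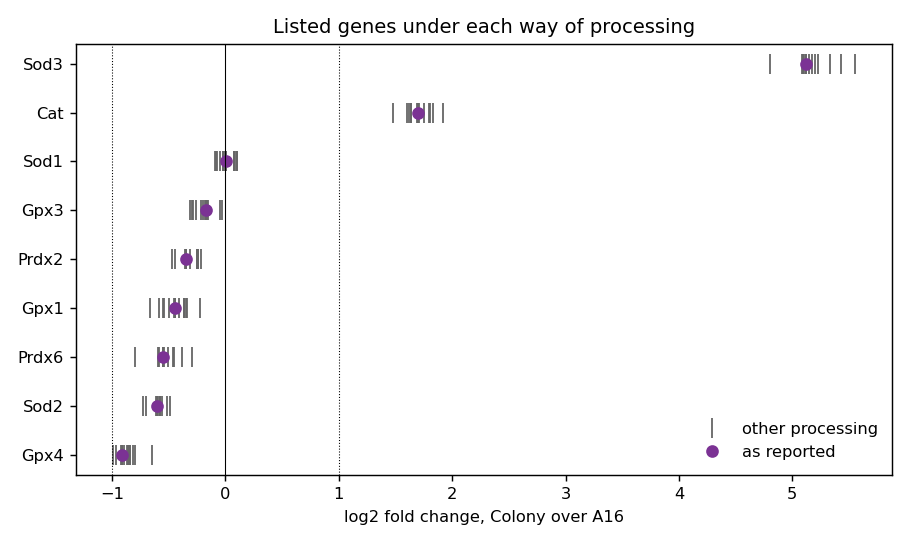
Log2 fold change, Colony over A16 (horizontal axis), of the 9 listed genes as reported (purple) and in each of 16 other fits (grey ticks), which change the array summary, the use of the technical arrays, the scaling, the filter or the replicates. A replicate block and the filter leave the log2 FC unchanged by construction. The ticks of Sod3 and Cat lie beyond the right dotted line (FC value of 2) throughout, and those of Sod1 lie on both sides of 0.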

How the data were processed

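RNA of A16 and Colony cells was hybridised by the authors to Affymetrix rat arrays, read with GeneChip Operating Software and summarised in Avadis with RMA and PLIER. Both summaries were deposited as linear intensity for each of 6 arrays. Background correction and scaling were part of those summaries, detection calls were not used here. The number of cultures limits the precision, and dim signal the size of a fold. The median RMA intensity ran from 97.6 to 101. The log2 RMA values of 31042 probe sets (57 controls left out) were fitted with limma 3.58.1 (lmFit, eBayes; R 4.3.3), and p-values were adjusted over all of them. The design was written for values on a log2 scale, so log2 was taken. The fit was tested on simulated data.

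Of the probe sets, 20826 carry 1 gene symbol, 436 several and 9780 none. For 20758 of those with 1 symbol the gene identifier was found in RefSeq GRCr8, and the symbol given there was used, changed or not. Of several probe sets of a gene the one with the highest mean log2 value stood for it. Colony and A16 arrays differed with an SD of 0.67 to 0.76 on the log2 scale and the cultures of a group with 0.30 and 0.33. The technical array of A16 differed from replicate 1 with an SD of 0.17, and that of Colony with 0.22 from replicate 1 and 0.24 from replicate 2.

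The genes, lists and motifs were chosen with earlier results of these data known. Named were all listed and other family genes, and of each other list up to 2 genes called in each direction by size. Markers were named where the cell type check needed them, and Duox2, Txnrd1, Srxn1, Sephs1, Mt1, Mt3, Slc31a1, Slc11a2, Keap1 and Nfe2l2 after their values were seen. The labels give no scan date or batch. They say no more of the cultures than the words biological replicate. The limma p-values thus rest on the spread between these samples, drawn towards that of all probe sets. Alternatives were PLIER, other uses of the technical arrays, a replicate block, other scaling, a filter on dim probe sets, each culture left out, the mean of the probe sets of a gene, no fold threshold and the methods' t-test. Figures were drawn with Python 3.11.15.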

Additional observations from a re-analysis of the deposited data

How the results depend on the processing

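Counts of calls did not move by over 1.5 times under PLIER, other uses of the technical arrays, other scaling, the filter on dim probe sets, the mean over probe sets or any culture left out. With no fold threshold, 2 listed genes were lower and 2 higher, 3 other family genes were higher and 2 lower, 17 genes of the 8 lists were higher and 15 lower, and 3545 probe sets were higher and 3511 lower, against 1242 and 1803 with it. With the methods' t-test there were 0 calls after Benjamini-Hochberg adjustment for the listed genes, the other family genes, the 8 lists and all probe sets. At an unadjusted p it gave 2 listed genes higher and 0 lower, 1 other family gene each way, 7 and 7 genes of the lists, and 1070 and 1313 probe sets. Because the contrast itself chose the listed genes, nothing is read from their counts in any fit. Leaving out each culture in turn, which leaves 1 culture in its group so that its lone culture is assumed to vary like those of the other group, gave 2 listed genes higher and 0 lower each time, 1282 to 1328 probe sets higher and 1498 to 2318 lower. In the lists it gave 6 to 9 genes higher and 7 to 10 lower.

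With the replicate number as a replicate block, 2 listed genes were higher and 0 lower, 7 and 10 genes of the lists were called, and 1254 probe sets were higher and 1867 lower. The deviations of same-numbered cultures correlated at -0.15 over all probe sets. With only 2 cultures in a group this cannot show whether the numbers pair the cultures, and the labels do not say. The crossed pairing, chosen after seeing the data, called 1256 and 1879 probe sets, and 2 and 0 of the listed genes.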
